A study of Mus musculus with 2207 samples.

Results

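The 8 genes described here encode the enzymes that place trimethylation on lysine 9 of histone H3 (H3K9me3) and the proteins that bind it. The enzymes are Suv39h1, Suv39h2, Setdb1 and Setdb2, the readers are the HP1 proteins Cbx1 (HP1β), Cbx3 (HP1γ) and Cbx5 (HP1α), and Trim28 (KAP1) is the corepressor that joins them. They were picked by gene symbol from both expression tables, and all 8 of 8 were found among 52636 genes. The rule uses no expression value.

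H3K9me3 marks constitutive heterochromatin. Suv39h1 and Suv39h2 are paralogs that methylate pericentromeric repeats, and Setdb1 is brought to retroelements by Trim28, which is itself bound by KRAB zinc finger proteins. HP1 proteins hold the methylated tail through a chromodomain and recruit more methyltransferase through a chromoshadow domain. The complex of GLP (Ehmt1) and G9a (Ehmt2), by contrast, mainly gives the mono- and dimethylated forms, so the 8 genes belong to the neighbouring step of the same residue.

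RNA of 2207 single nuclei from adult mouse cortex was measured by RamDA-seq, a full-length total RNA method, in 6 pools of 3 mice each (males on a C57BL/6 background). The mice were 14 weeks old, and every pool had received tamoxifen (100 mg/kg, 2 times, from 3 weeks of age). The 96-well plates held a WT and an Ehmt1Δ/+ pool (730 nuclei), where Ehmt1Δ/+ mice lack 1 functional copy of Ehmt1 as a model of Kleefstra syndrome. The 384-well plates held a WT, an Ehmt1Δ/+, an iTg and an Ehmt1Δ/+; iTg pool (1477 nuclei). iTg is a FLAG-Ehmt1 transgene at Rosa26 behind the CAG promoter that tamoxifen switches on through CamKII-CreER, a Cre of postnatal forebrain neurons. By their genotype labels the 384-well WT and Ehmt1Δ/+ pools carried the transgene without CamKII-CreER, and the iTg and Ehmt1Δ/+; iTg pools carried both. Figure legends of the study speak of CamKII-CreER for mice of all these genotypes, and the labels were followed here. No nucleus name was shared between pools.

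Nuclei were called neurons (1664), microglia (16 to 36 in a pool) and oligodendrocytes (397) by the authors from clusters and marker genes of the same nuclei. Which mouse of a pool a nucleus came from is not given, so each pool gives 1 value per cell type. For cell types and neuron classes, the p-values measure how differences within a pool vary over pools. The cell type contrasts of a gene share the same SE, so sparse microglial values enter all of them. For genotype and transgene, the p-values measure the spread between pools left after the covariate. Over the 6 pools the microglial marker Csf1r was at 801 to 960 RPKM (reads scaled to exon length and to the read total of the nucleus) in microglia and at no more than 2.08 RPKM in the other types, and Ctss, Cx3cr1 and P2ry12 were at 94.2 RPKM or more in microglia and at no more than 2.33 RPKM elsewhere. The oligodendrocyte marker Mbp was at 652 to 955 RPKM in oligodendrocytes and at no more than 8.32 RPKM elsewhere, and Olig1, Mog and Mag were at 39.1 RPKM or more in oligodendrocytes and at no more than 15.6 RPKM elsewhere. The 5 neuronal markers (Snap25, Syt1, Rbfox3, Slc17a7, Gad1) summed to 258.2 to 334.8 RPKM in neurons, to 1.49 to 71.3 RPKM in microglia and to 3.85 to 59.1 RPKM in oligodendrocytes. Median read totals were 323273 to 397880 in neurons of every pool and 441701 to 510639 in glia of the 96-well plates, but only 39940 to 54877 in glia of the 384-well plates, where the summed reads of a member in a microglial pool went down to 1 (Setdb2).

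Ehmt1 itself was measured first. In neurons its level was 18.7 RPKM (WT, 96-well), 19.5 (WT, 384-well) and 20.7 (iTg), against 31.2 (Ehmt1Δ/+, 96-well), 31.7 (Ehmt1Δ/+, 384-well) and 33.9 (Ehmt1Δ/+; iTg). The 3 pools labelled Ehmt1Δ/+ thus stood above the other 3, which is the opposite direction to the loss of a copy. Values per gene do not separate the deleted part of the transcript from the rest and so check neither the deletion nor the protein. Below, each genotype is the one given by the label.

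Suv39h1 and Suv39h2 are the pair with the clearest contrast between cell types, so their start regions are shown. They are taken from RefSeq (GRCm38.p6, 250 bases before to 50 after the annotated start, minus strand for both genes), and for Suv39h1 the more upstream of 2 annotated starts is printed. Capitals mark GGGCGG, the GC box, read on both strands.
Suv39h1, chrX:8074711-8075010: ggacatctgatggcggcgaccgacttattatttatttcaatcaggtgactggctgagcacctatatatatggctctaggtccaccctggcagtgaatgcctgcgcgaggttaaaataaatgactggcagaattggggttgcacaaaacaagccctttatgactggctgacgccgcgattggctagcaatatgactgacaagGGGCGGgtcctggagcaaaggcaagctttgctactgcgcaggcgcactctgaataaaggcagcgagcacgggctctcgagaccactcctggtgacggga
Suv39h2, chr2:3474937-3475236: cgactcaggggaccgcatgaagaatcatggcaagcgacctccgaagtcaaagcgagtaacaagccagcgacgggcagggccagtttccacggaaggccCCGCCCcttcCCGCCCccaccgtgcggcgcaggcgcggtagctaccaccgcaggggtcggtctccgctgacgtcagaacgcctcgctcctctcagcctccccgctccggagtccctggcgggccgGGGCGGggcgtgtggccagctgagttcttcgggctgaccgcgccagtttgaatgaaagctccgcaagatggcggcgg
The Suv39h1 window holds 1 GC box and 15 CG dinucleotides, and the Suv39h2 window holds 3 GC boxes and 33 CG dinucleotides. The GC box is in 35.7% of the 32851 RefSeq windows of this length and in 9 of the 11 windows of the 8 genes. The CCAAT core (ATTGG on either strand) is present 2 times in the Suv39h1 window and 0 times in that of Suv39h2, and occurs in 37.4% of all windows. TATAAA is in none of the 11 windows, against 13.6% of all. These letter matches are descriptions of the sequence.

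In every cell type Setdb1 and Trim28 were the 2 most abundant of the 8 genes, in each of the 6 pools. RPKM is scaled to exon length, but differences between plate formats and reads in exons shared with other genes remain. The order between genes is therefore descriptive. In WT neurons Cbx5 was at 12.2 RPKM (96-well) and 3.50 RPKM (384-well), while Trim28 was at 25.2 and 41.3 RPKM. In neurons Setdb1 ranged from 20.97 to 25.4 RPKM and Trim28 from 23.04 to 46.7 RPKM. Trim28 was the higher of them in 5 of 6 pools, and Setdb1 in the Ehmt1Δ/+ 96-well pool. Cbx5 (2.91 to 12.2 RPKM) and Cbx1 (3.31 to 5.69 RPKM) followed in ranks 3 and 4, and their ranges overlapped. Suv39h1 (1.503 to 2.92 RPKM) and Cbx3 (1.39 to 4.08 RPKM) shared ranks 5 and 6, again with overlapping ranges. Suv39h2 (0.977 to 2.38 RPKM) was always rank 7 and Setdb2 (0.614 to 1.49 RPKM) always rank 8 in neurons.

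**Figure D1:**
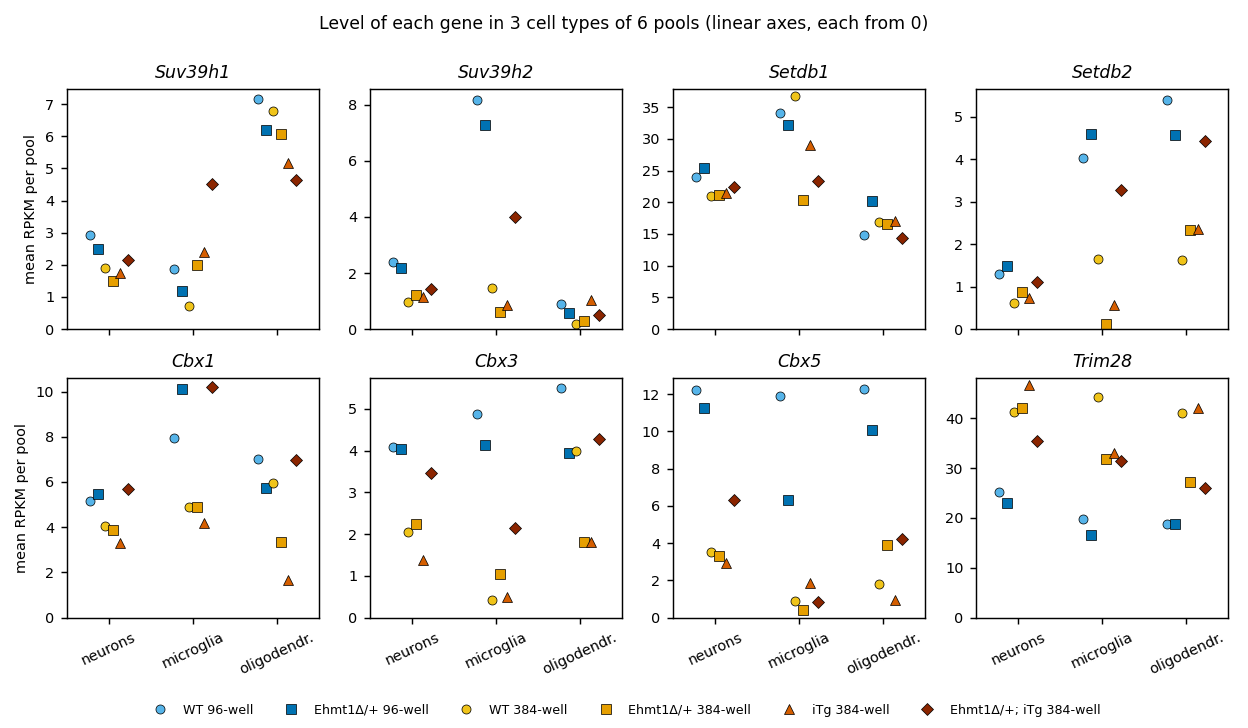
Mean RPKM of each gene (linear axes from 0) in neurons, microglia and oligodendrocytes, with 1 point for each of the 6 pools. The 6 Suv39h1 values of oligodendrocytes (4.65 to 7.15 RPKM) lie above the 6 of neurons (1.503 to 2.92 RPKM), and Cbx5 in neurons is 11.2 and 12.2 RPKM in the 96-well pools against 2.91 to 6.31 RPKM in the 384-well pools.

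For 5 of the 8 genes many deposited values hold fractions of reads. Of the values above 0, 69.5% for Cbx3, 57.7% for Setdb1, 44.9% for Suv39h1, 38.1% for Suv39h2 and 22.1% for Cbx1 were not whole reads (tolerance 0.02 reads), against 0.985% for Cbx5, 0.281% for Setdb2 and 0.145% for Trim28. Cbx3 has 8 named processed copies (Cbx3-ps1 to Cbx3-ps8). In the GENCODE annotation of mm10 used here (M21), exons of Suv39h1 (X, 8061171 to 8074760, minus strand) overlap those of the antisense gene Gm14820 over 767 bases (14.6% of the exon length of Suv39h1). Exons of Suv39h2 (2, 3455815 to 3475031, minus strand) overlap the DNA repair gene Dclre1c over 8.10% of their length and the antisense gene Gm13184 over 1.88%. Exons of Setdb1 (3, 95323525 to 95357202, minus strand) overlap the ceramide synthase gene Cers2 over 1.09% and Gm37500 over 3.63% of their length. The methods give default counting settings, which do not divide reads, so how the fractions arose is not known. The counting is not described as strand-specific either, so reads in these stretches cannot be assigned to 1 gene. Exons of Setdb2 (14, 59402009 to 59440884, minus strand), Cbx1 (11, 96789127 to 96808640, plus strand), Cbx3 (6, 51470360 to 51483704, plus strand), Cbx5 (15, 103191544 to 103239816, minus strand) and Trim28 (7, 12999114 to 13031035, plus strand) overlap no other gene's exons.

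The first comparison asked how the machinery differs between neurons, microglia and oligodendrocytes. Suv39h1 and Setdb2 were higher in oligodendrocytes than in neurons, and Suv39h2 and Setdb1 were lower. The tests used limma on log2(mean RPKM + 0.1) of 18 means, 3 for each pool, with a pool term, and Benjamini-Hochberg adjustment over all 24768 genes tested, so that the differences of low genes are understated. All 8 genes passed the filter on low values. In oligodendrocytes against neurons 4 of the 8 genes passed an adjusted p of 0.05, 2 in each direction, where 51.8% of all genes did. In microglia against neurons 2 of 8 passed, against 64.4% of all genes. In microglia against oligodendrocytes 4 of 8 passed, against 43.2% of all genes. The nuclei were grouped on their own expression, which these p-values do not account for.

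The median log2 ratio of the 8 genes was 0.08 in microglia minus neurons, where the median of all genes tested was -0.83. It was -0.15 in oligodendrocytes minus neurons, with -0.60 over all genes, and -0.47 in microglia minus oligodendrocytes, with -0.08 over all genes.

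Suv39h1, which with its paralog keeps pericentromeric heterochromatin methylated, was at 7.15 (WT, 96-well), 6.21 (Ehmt1Δ/+, 96-well), 6.80 (WT, 384-well), 6.06 (Ehmt1Δ/+, 384-well), 5.17 (iTg) and 4.65 RPKM (Ehmt1Δ/+; iTg) in oligodendrocytes. In neurons of the same pools it was at 2.92, 2.48, 1.92, 1.503, 1.74 and 2.14 RPKM. Oligodendrocytes were higher in 6 of 6 pools and the ranges did not overlap. The log2 ratio was 1.48 ± 0.33 (SE, adjusted p = 0.00225 by limma), a 2.79-fold difference on this scale, and it held in both plate formats (1.28 in the 96-well pools alone, adjusted p = 0.0152, and 1.58 in the 384-well pools alone, adjusted p = 0.0232).

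Suv39h1 in microglia was at 1.86, 1.18, 0.710, 2.01, 2.39 and 4.52 RPKM in the same order of pools. Microglia lay below oligodendrocytes in 6 of 6 pools (log2 ratio -1.66 ± 0.33, adjusted p = 0.00127). Microglia lay above neurons in 3 pools and below them in 3 (log2 ratio -0.18 ± 0.33, adjusted p = 0.658). The formats differed, with -0.82 in the 96-well pools alone (adjusted p = 0.0375 by limma) and 0.14 in the 384-well pools alone (adjusted p = 0.807). In the 384-well pools the microglial values rest on 2.5 to 23.7 reads of Suv39h1 in all.

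Levels of the overlapping antisense gene Gm14820 moved with those of Suv39h1. Gm14820 was at 2.63 to 6.26 RPKM in oligodendrocytes, 1.51 to 1.93 RPKM in neurons and 0.405 to 2.11 RPKM in microglia. All reads listed for Gm14820 were therefore subtracted from Suv39h1 in each nucleus, an alternative chosen after seeing the data. Suv39h1 was then at 3.20 to 5.80 RPKM in oligodendrocytes and at 0.904 to 2.26 RPKM in neurons, without overlap. The log2 ratio of oligodendrocytes to neurons was 1.62 (adjusted p = 0.0344 by limma), and that of microglia to oligodendrocytes was -2.003 (adjusted p = 0.0144). The second of these depends on the pseudocount, because no Suv39h1 reads were left in microglia of the WT 384-well pool. The other microglial values were 1.70 (WT, 96-well), 0.898 (Ehmt1Δ/+, 96-well), 1.33 (Ehmt1Δ/+, 384-well), 2.02 (iTg) and 3.68 RPKM (Ehmt1Δ/+; iTg), and in the last pool microglia lay above oligodendrocytes (3.20 RPKM).

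The share of nuclei with a Suv39h1 read did not follow the level in the 96-well pools. In the 96-well pools, thinned to 291080 reads a nucleus, Suv39h1 was found in 42.3 and 48.9% of oligodendrocytes and in 53.3 and 58.6% of neurons. The positive oligodendrocytes held a median of 27.8 and 29.5 reads, and the positive neurons 7 reads in both pools. In the 384-well pools, thinned to 26381 reads, the shares were 27.95 to 34.8% in oligodendrocytes and 15.03 to 21.3% in neurons. The shares in the 96-well pools run against the RPKM, so no order is read from them. Thinning left out 52 neurons and 2 oligodendrocytes in the 96-well pools and 11 oligodendrocytes in the 384-well pools. Without thinning, the shares with a value above 0 were 49.3% (exact 95% interval 37.4 to 61.3%) in WT oligodendrocytes and 61.3% (54.96 to 67.3%) in WT neurons of the 96-well plates, intervals that cover counting error only.

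Suv39h2 went the other way. In oligodendrocytes it was at 0.907 (WT, 96-well), 0.587 (Ehmt1Δ/+, 96-well), 0.185 (WT, 384-well), 0.285 (Ehmt1Δ/+, 384-well), 1.04 (iTg) and 0.518 RPKM (Ehmt1Δ/+; iTg). In neurons of the same pools it was at 2.38, 2.18, 0.977, 1.20, 1.15 and 1.43 RPKM. Oligodendrocytes were lower in 6 of 6 pools, although the ranges over all pools overlapped (log2 ratio -1.36 ± 0.43, adjusted p = 0.0186). The call was kept in 9 of 14 alternatives. Among the losses were the fits without the WT 384-well pool (adjusted p = 0.0666), with a pseudocount of 1 (adjusted p = 0.0694) and in the 384-well pools alone (adjusted p = 0.0803), where the oligodendrocyte values rest on 3.5 to 31 reads.

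Microglia held the highest Suv39h2 values of the study, 8.16 and 7.29 RPKM in the 96-well pools, from 675 and 508 reads. In the 384-well pools they were at 1.47 (WT), 0.602 (Ehmt1Δ/+), 0.855 (iTg) and 3.99 RPKM (Ehmt1Δ/+; iTg), from 2 to 17 reads. The log2 ratio of microglia to oligodendrocytes was 2.04 ± 0.43 (adjusted p = 0.00183), with microglia higher in 5 of 6 pools, and the 384-well pools alone gave 1.45 (adjusted p = 0.0623). Against neurons it was 0.69 ± 0.43 (adjusted p = 0.183), with 1.72 in the 96-well pools alone (adjusted p = 0.00593) and 0.17 in the 384-well pools alone (adjusted p = 0.794). The overlapping gene Dclre1c was at 6.03 to 31.4 RPKM in microglia, 4.74 to 6.28 RPKM in neurons and 1.22 to 3.58 RPKM in oligodendrocytes, and its part in the Suv39h2 values was not tested.

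Setdb1, the Trim28-bound enzyme that silences retroelements, was at 14.9, 20.2, 16.8, 16.6, 17.02 and 14.4 RPKM in oligodendrocytes (pools in the order above), all below its lowest neuronal value of 20.97 RPKM. In microglia it was at 34.1, 32.1, 36.7, 20.4, 29.01 and 23.3 RPKM. It was therefore lowest in oligodendrocytes and highest in microglia in 5 of 6 pools. The ratio of microglia to oligodendrocytes passed the test (log2 ratio 0.79 ± 0.16, adjusted p = 0.00141), as did that of oligodendrocytes to neurons (-0.44 ± 0.16, adjusted p = 0.0358), while that of microglia to neurons did not (0.35 ± 0.16, adjusted p = 0.0763). The drop in oligodendrocytes kept its call in 7 of 14 alternatives. It was lost in the 96-well pools alone (adjusted p = 0.144), in the 384-well pools alone (adjusted p = 0.169), with no pool term (adjusted p = 0.0575), and without the WT 96-well (adjusted p = 0.104), Ehmt1Δ/+ 96-well (0.0723), iTg (0.0624) or Ehmt1Δ/+; iTg pool (0.105). Cers2, which shares exon bases with Setdb1, had a median over pools of 130.9 RPKM in oligodendrocytes and 9.36 RPKM in neurons, the direction opposite to Setdb1. In microglia Cers2 was at 27.9 to 42.4 RPKM against 9.18 to 9.81 RPKM in neurons, the same direction as the Setdb1 ratio there. Its part in the Setdb1 values was not tested.

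Setdb2, a relative of Setdb1, was at 5.39, 4.57, 1.62, 2.35, 2.35 and 4.43 RPKM in oligodendrocytes and at 1.31, 1.49, 0.614, 0.871, 0.735 and 1.11 RPKM in neurons. Oligodendrocytes were higher in 6 of 6 pools, and their lowest value lay above the highest value of neurons. The log2 ratio was 1.60 ± 0.46 (adjusted p = 0.0104), a 3.02-fold difference on this scale, and it lost the call only in the 384-well pools alone (1.51, adjusted p = 0.0807) among the alternatives tested. In microglia Setdb2 was at 4.02 and 4.61 RPKM in the 96-well pools and at 0.127 to 3.27 RPKM in the 384-well pools, there from 1 to 13 reads. Microglia against neurons did not pass (0.58 ± 0.46, adjusted p = 0.287 by limma), but passed in 3 of 14 alternatives. The ratio was 1.56 in the 96-well pools alone (adjusted p = 0.00772) and 0.09 in the 384-well pools alone (adjusted p = 0.911).

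**Figure D2:**
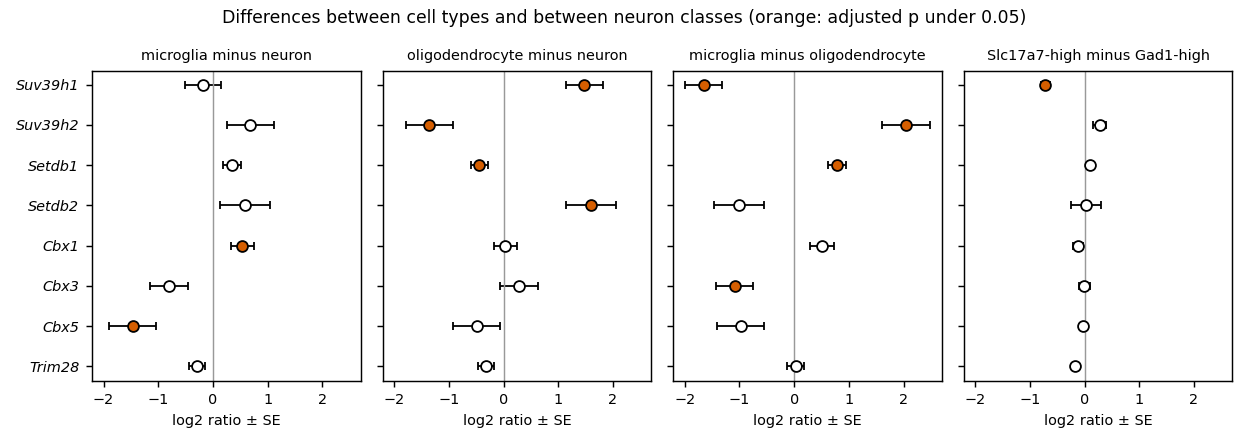
Log2 ratios of the 8 genes on the log2(mean RPKM + 0.1) scale with their SE from limma, in the 3 differences between cell types and in Slc17a7-high minus Gad1-high neurons. Orange points have an adjusted p under 0.05: Suv39h1 is at 1.48 and Suv39h2 at -1.36 in oligodendrocyte minus neuron.

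Of the HP1 genes, Cbx5 fell in microglia. Cbx5, a reader found at pericentromeric heterochromatin, was at 11.9, 6.33, 0.865, 0.433, 1.86 and 0.855 RPKM in microglia against 12.2, 11.2, 3.50, 3.30, 2.91 and 6.31 RPKM in neurons. Microglia were lower in 6 of 6 pools (log2 ratio -1.46 ± 0.43, adjusted p = 0.00954), by a margin that was small in the WT 96-well pool. In the 96-well pools alone the ratio was -0.43 (adjusted p = 0.254), and in the 384-well pools alone, where microglial values rest on 7 to 16 reads, it was -1.98 (adjusted p = 0.0156). In oligodendrocytes Cbx5 was at 0.942 to 12.3 RPKM and did not pass the test against neurons (-0.49 ± 0.43, adjusted p = 0.375).

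Cbx1 in microglia was at 7.96, 10.1, 4.88, 4.87, 4.18 and 10.2 RPKM, above neurons of the same pool in 6 of 6 pools (5.16, 5.48, 4.05, 3.87, 3.31 and 5.69 RPKM). The log2 ratio of 0.54 ± 0.21 had an adjusted p of 0.042 and kept its call in 6 of 14 alternatives. Among those that lost it were the fits without the WT 96-well (adjusted p = 0.0903), Ehmt1Δ/+ 96-well (0.128), Ehmt1Δ/+ 384-well (0.0640) and Ehmt1Δ/+; iTg pool (0.123). Between oligodendrocytes and neurons Cbx1 had a log2 ratio of 0.03 ± 0.21 (adjusted p = 0.921).

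Cbx3, which is also found in transcribed chromatin, was lower in microglia than in oligodendrocytes (-1.09 ± 0.34, adjusted p = 0.0209), in 5 of 6 pools. It passed in the 384-well pools alone, where microglia were at 0.417 to 2.15 RPKM and oligodendrocytes at 1.81 to 4.28 RPKM (ratio -1.60, adjusted p = 0.0101). In the 96-well pools microglia were at 4.89 and 4.12 RPKM and oligodendrocytes at 5.49 and 3.95 RPKM (ratio -0.05, adjusted p = 0.891), and the difference between the formats was not tested. The call was also lost without the WT 384-well (-0.71, adjusted p = 0.0649), iTg (0.0772) or Ehmt1Δ/+; iTg pool (0.054).

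Trim28 passed in none of the 3 contrasts, with log2 ratios of -0.30 ± 0.15 (microglia minus neurons, adjusted p = 0.102), -0.32 ± 0.15 (oligodendrocytes minus neurons, adjusted p = 0.0905) and 0.03 ± 0.15 (microglia minus oligodendrocytes, adjusted p = 0.924). Each of the 2 ratios to neurons passed in 3 of 14 alternatives (a pseudocount of 1, no filter on low values and limma trend). The ratio between the glia passed in 0 of 14. Trim28 was lower than in neurons in 5 of 6 pools in microglia and in 6 of 6 in oligodendrocytes. It was at 16.5 to 44.4 RPKM in microglia and at 18.7 to 42.2 RPKM in oligodendrocytes.

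Within neurons, Suv39h1 was higher in Gad1-high than in Slc17a7-high nuclei. Neurons were divided by which of Slc17a7, the vesicular glutamate transporter, and Gad1, the GABA-synthesising enzyme, had the higher RPKM. This gave 1324 Slc17a7-high nuclei in all and 43 to 73 Gad1-high nuclei per pool. Suv39h1 was at 4.08 (WT, 96-well), 3.28 (Ehmt1Δ/+, 96-well), 2.98 (WT, 384-well), 2.31 (Ehmt1Δ/+, 384-well), 2.51 (iTg) and 3.33 RPKM (Ehmt1Δ/+; iTg) in Gad1-high neurons. In Slc17a7-high neurons it was at 2.54, 2.31, 1.54, 1.32, 1.499 and 1.88 RPKM. Gad1-high neurons were higher in 6 of 6 pools, with overlap only between pools.

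The log2 ratio of Slc17a7-high to Gad1-high neurons was -0.72 ± 0.08 for Suv39h1 (adjusted p = 0.000338 by limma over 24529 genes). It was the 1 gene of 8 to pass, where 41.8% of all genes did. Gm14820 was at 2.43 to 3.41 RPKM in Gad1-high and 1.18 to 1.56 RPKM in Slc17a7-high neurons, and after subtraction of its reads the ratio was -0.51 (adjusted p = 0.00694 by limma). The call was lost in the 96-well pools alone (-0.57, adjusted p = 0.114). Suv39h2 had the opposite sign (0.27 ± 0.12, adjusted p = 0.0983), being higher in Slc17a7-high neurons in 5 of 6 pools. The log2 ratios of the other 6 genes lay between -0.17 (Trim28, adjusted p = 0.0689) and 0.09 (Setdb1, adjusted p = 0.300).

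**Figure D3:**
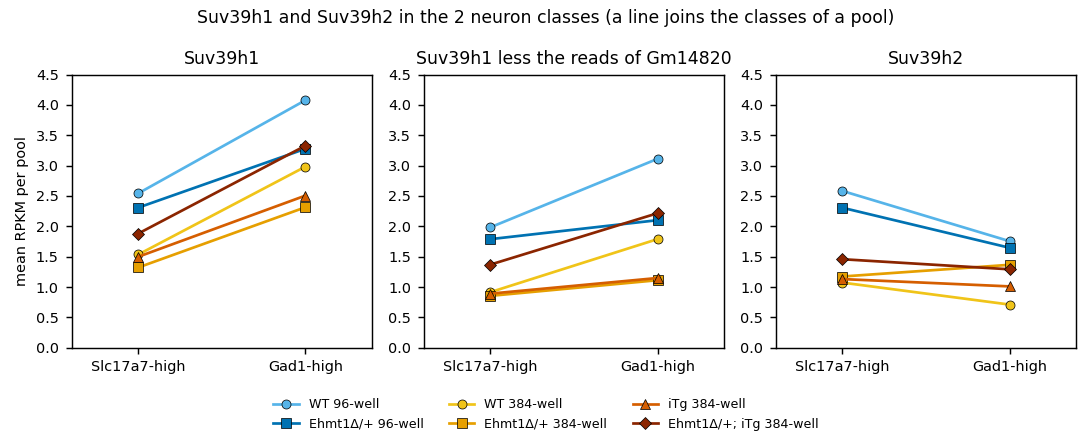
Mean RPKM (linear axes from 0) of Suv39h1, of Suv39h1 after subtraction of the reads of Gm14820, and of Suv39h2 in Slc17a7-high and Gad1-high neurons, with a line for each of the 6 pools. All 6 lines of Suv39h1 rise towards Gad1-high neurons (2.31 to 4.08 RPKM), also after the subtraction (1.11 to 3.11 RPKM), and 5 of the 6 lines of Suv39h2 fall.

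The next comparison asked what loss of a copy of Ehmt1 does. None of the 8 genes passed between Ehmt1Δ/+ and WT pools in any cell type. In neurons 0% of 23853 genes passed an adjusted p of 0.05 in limma with 4 pools, the plate format as a covariate and 1 residual degree of freedom, although 10.2% of them had an unadjusted p under 0.05. The corresponding shares were also 0% in microglia (13686 genes, 1.93% unadjusted) and oligodendrocytes (12832 genes, 4.72% unadjusted). Ehmt1 itself did not pass in neurons either (log2 ratio 0.71 ± 0.10, adjusted p = 0.461 by limma), and no gene had a lower adjusted p there. The absence of calls therefore does not exclude differences in the 8 genes. Setdb2 in microglia and Suv39h2 in oligodendrocytes did not pass the filter on low values, so 7 genes were tested in each of these types.

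Suv39h1 had the lowest unadjusted p in neurons (0.0629). It was lower in Ehmt1Δ/+ neurons in both formats (2.48 against 2.92 RPKM in 96-well plates, 1.503 against 1.92 RPKM in 384-well plates), with a log2 ratio of -0.28 ± 0.10 and an adjusted p of 0.516. In the 384-well plates the WT pool had a plate code of its own and the other 3 pools shared another, so there each difference from WT cannot be told apart from the plate code. In the 96-well plates 3 plate codes held both genotypes, and Suv39h1 was lower in Ehmt1Δ/+ in 2 of them and higher in 1, with log2 ratios from -0.54 to 0.21. Over plate codes it was at 2.28 to 3.17 RPKM in WT and at 1.67 to 3.59 RPKM in Ehmt1Δ/+ neurons, so the genotypes overlapped.

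Setdb2 was higher in Ehmt1Δ/+ neurons in both formats (1.49 against 1.31 RPKM and 0.871 against 0.614 RPKM; 0.31 ± 0.12, adjusted p = 0.528). The remaining log2 ratios in neurons lay between -0.10 (Cbx5, SE 0.10, adjusted p = 0.777) and 0.08 (Suv39h2, SE 0.15, adjusted p = 0.891). Setdb1 (0.05 ± 0.10), Cbx1 (0.01 ± 0.11), Cbx3 (0.05 ± 0.11) and Trim28 (-0.05 ± 0.11) were within 1 SE of 0.

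In glia the spread was wider. The largest ratio in microglia was that of Cbx5 (-0.88 ± 0.45, adjusted p = 0.92), which was lower in Ehmt1Δ/+ in both formats (6.33 against 11.9 RPKM and 0.433 against 0.865 RPKM). In oligodendrocytes it was that of Cbx3 (-0.78 ± 0.31, adjusted p = 0.87), also lower in both formats (3.95 against 5.49 RPKM and 1.81 against 3.99 RPKM). Cbx1 was likewise lower in Ehmt1Δ/+ oligodendrocytes in both formats (5.75 against 7.02 RPKM and 3.36 against 5.98 RPKM, -0.55 ± 0.29, adjusted p = 0.87). Over the 6 alternatives with a test, its log2 ratio ran from -0.56 to 0.30, so the sign was not kept. That of Cbx3 in oligodendrocytes ran from -0.81 to -0.12. The oligodendrocyte values of a 384-well pool rest on 48 to 124.5 reads of Cbx1 and 46.1 to 111.9 reads of Cbx3.

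The study asked whether supplying GLP after birth reverses the effects of that loss, and here the induced transgene was examined. The 4 pools of the 384-well plates were compared with and without it, with the genotype as a covariate and 1 residual degree of freedom. Ehmt1 RNA itself had a log2 ratio of 0.09 ± 0.24 in neurons in this comparison (adjusted p = 0.9999 by limma). The values per gene thus show no clear rise with the transgene and do not check its induction. None of the 8 genes passed in neurons, where 0% of 23827 genes did (1.42% at an unadjusted p under 0.05), nor did any of the 7 genes tested in microglia (0% of 13015 genes, 3.86% unadjusted) or in oligodendrocytes (0% of 12406 genes, 3.99% unadjusted). In neurons the log2 ratios lay between -0.04 (Trim28) and 0.33 (Cbx5), with SE of 0.24 to 0.35 and adjusted p of 0.9999. The largest ratio in microglia was that of Suv39h1 (1.38 ± 0.59, adjusted p = 0.994).

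Among neurons of the 384-well pools, the Ehmt1Δ/+; iTg pool held the highest value of 7 of the 8 genes and the lowest of 1, Trim28. Over all 23853 genes the median log2 ratio of this pool was 0.15 to Ehmt1Δ/+ and 0.11 to WT. A rise was thus not confined to these 8 genes, and how many of all genes were highest in this pool was not counted. The Ehmt1Δ/+; iTg pool held Cbx5 at 6.31 RPKM, against 3.50 (WT), 3.30 (Ehmt1Δ/+) and 2.91 RPKM (iTg). It held Cbx3 at 3.45 RPKM, against 2.06, 2.23 and 1.39 RPKM, and Cbx1 at 5.69 RPKM, against 4.05, 3.87 and 3.31 RPKM. Trim28 was at 35.4 RPKM against 41.3, 42.1 and 46.7 RPKM. In each of these 4 genes the values of the Ehmt1Δ/+; iTg pool lay on the side of the 96-well pools (Cbx5 11.2 and 12.2 RPKM, Cbx3 4.04 and 4.08 RPKM, Cbx1 5.16 and 5.48 RPKM, Trim28 23.04 and 25.2 RPKM).

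Over all 23853 genes tested in neurons, 6.32% differed by more than 2-fold between the Ehmt1Δ/+; iTg and Ehmt1Δ/+ pools of the 384-well plates, against 1.06% between Ehmt1Δ/+ and WT and 1.49% between iTg and WT there. The iTg pool alone was not on the same side as the Ehmt1Δ/+; iTg pool: against WT its log2 ratios in neurons were -0.26 for Cbx5, -0.54 for Cbx3 and -0.29 for Cbx1, while Ehmt1Δ/+; iTg against Ehmt1Δ/+ gave 0.91, 0.61 and 0.54. These are differences between single pools, with no test. What sets this pool apart was not tested.

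For all 8 genes the WT pools of both formats differed more in neurons than Ehmt1Δ/+ and WT did within either format. Between WT pools, neurons of 384-well plates had a log2 ratio to those of 96-well plates of -1.77 for Cbx5, -1.20 for Suv39h2, -0.98 for Setdb2, -0.96 for Cbx3, -0.58 for Suv39h1, -0.34 for Cbx1 and -0.20 for Setdb1, and of 0.71 for Trim28. In this comparison 26.01% of all genes tested in neurons differed by more than 2-fold. Ehmt2 (G9a) was at 25.5 and 26.6 RPKM in neurons of the 96-well pools and at 46.95 to 71.4 RPKM in those of the 384-well pools. Each pool was prepared in 1 format, so differences of mice, library and plate cannot be told apart.

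**Figure D4:**
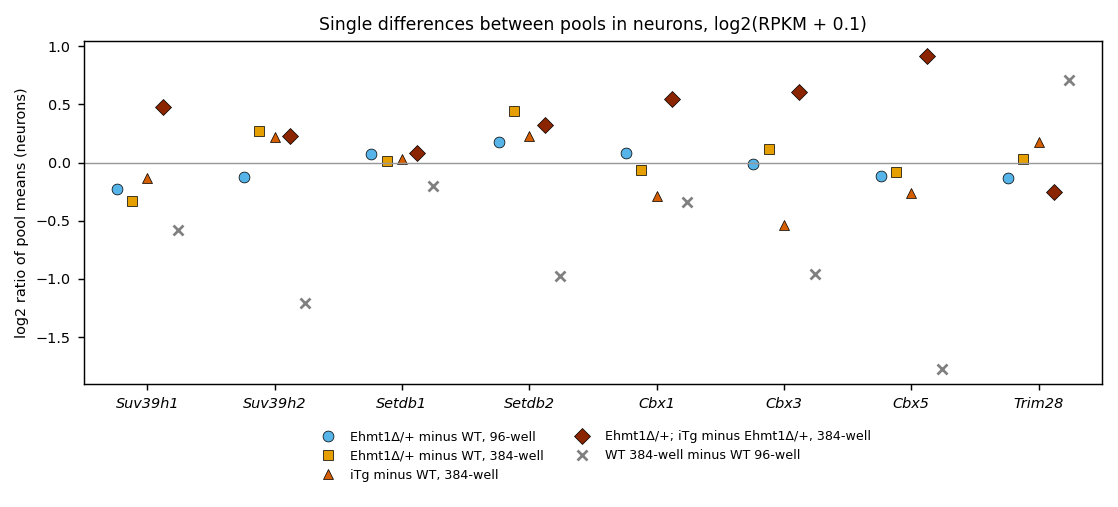
Log2 ratios of pool means in neurons, log2(RPKM + 0.1), for each of the 8 genes: Ehmt1Δ/+ minus WT in both plate formats, the 2 differences with the induced transgene, and, as grey crosses, WT of the 384-well minus WT of the 96-well plates. The Ehmt1Δ/+ differences lie between -0.33 and 0.44, while the plate formats differ by -1.77 for Cbx5 and 0.71 for Trim28.

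The 24 partner genes of the pathway (subunits of the HUSH and MORC silencers, cofactors of Setdb1, histone chaperones, remodellers and the SUMO enzymes) were examined in the same fits. In oligodendrocytes against neurons 11 of 23 tested passed, 8 higher and 3 lower, where 51.8% of all genes did. The largest were Lbr, a receptor of the nuclear lamina that binds HP1 (log2 ratio 2.49 ± 0.29, adjusted p = 9.17e-06), Pphln1 (1.75 ± 0.35, adjusted p = 0.000977) and Fam208a (1.33 ± 0.16, adjusted p = 1.45e-05), which belong to the HUSH complex, and Atf7ip, the stabilising partner of Setdb1 (1.27 ± 0.13, adjusted p = 3.29e-06). Atf7ip and Setdb1 thus had opposite signs in this contrast. In microglia against neurons 8 of 23 passed, 5 higher and 3 lower, where 64.4% of all genes did. They were led by Zfp57, a KRAB zinc finger protein of imprinted loci (-3.84 ± 0.52, adjusted p = 2.72e-05), Morc3 (2.51 ± 0.14, adjusted p = 8.05e-09), Resf1 (1.89 ± 0.18, adjusted p = 8.41e-07) and Chaf1a, a histone chaperone of replication (-1.60 ± 0.56, adjusted p = 0.0245). In microglia against oligodendrocytes 12 of 23 passed, 6 in each direction, where 43.2% of all genes did.

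Between Slc17a7-high and Gad1-high neurons 6 of 23 partner genes passed, 1 higher and 5 lower, where 41.8% of all genes did. Zfp57 (-0.94 ± 0.16, adjusted p = 0.00329), Trim24 (-0.72 ± 0.12, adjusted p = 0.00276) and Morc3 (-0.26 ± 0.08, adjusted p = 0.0348) were higher in Gad1-high neurons, as was Suv39h1, and Cdyl (0.65 ± 0.18, adjusted p = 0.0222) was higher in Slc17a7-high neurons. The median log2 ratio of the partner genes was 0.18 in microglia minus neurons and -0.08 in oligodendrocytes minus neurons, where the medians of all genes were -0.83 and -0.60. None of the partner genes passed in any genotype or transgene comparison. Chd4, among those with the highest mean, had a log2 ratio of -0.06 ± 0.13 in Ehmt1Δ/+ minus WT neurons (adjusted p = 0.901).

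Polycomb chromobox proteins carry a chromodomain related to that of HP1 but read H3K27me3. Against neurons, Cbx7 was higher in oligodendrocytes (1.51 ± 0.17, adjusted p = 5.71e-06) and Cbx6 was lower (-0.55 ± 0.18, adjusted p = 0.0246). In microglia Cbx6 (-2.04 ± 0.18, adjusted p = 6.51e-07), Cbx2 (-2.39 ± 0.63, adjusted p = 0.00507) and Cbx8 (-2.08 ± 0.81, adjusted p = 0.0406) were lower and Cbx7 was higher (0.59 ± 0.17, adjusted p = 0.00725). In oligodendrocytes against neurons 3 of the 5 Polycomb chromobox genes and none of the 3 HP1 genes passed, where 51.8% of all genes did. In microglia against neurons 4 of the 5 Polycomb genes passed, as did Cbx1 and Cbx5 of the 3 HP1 genes, where 64.4% of all genes did.

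The genes whose pattern was most like that of each member were found by Pearson's r over the 18 means of pool and cell type, which share libraries and depth. For Suv39h1 they were Mtmr10 (r = 0.935), Ckap5 (0.911) and Hepacam (0.911), whose median over pools was 0.505 RPKM in neurons and 81.7 RPKM in oligodendrocytes. For Suv39h2 they were Sdcbp (0.901), Znrf2 (0.901) and Rnmt (0.898). For Setdb1 they were Agpat2 (0.911), Abcb1b (0.902) and Trcg1 (0.894), and for Setdb2 Rnf130 (0.919), Trmt13 (0.918) and Ddx52 (0.915).

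For the readers the likest genes were Gspt1 (r = 0.864), Mapre1 (0.863) and Etohd2 (0.862) for Cbx1, and Ociad1 (0.948), Immp1l (0.941) and Gdap10 (0.935) for Cbx3. They were Rpa3 (0.947), Tmx3 (0.941) and Nsd3 (0.937) for Cbx5, and Mllt6 (0.959), Rrp1 (0.955) and Ptpn23 (0.9498) for Trim28. Among the 8 genes themselves r was -0.51 between Suv39h1 and Suv39h2, -0.78 between Suv39h1 and Setdb1, 0.71 between Suv39h2 and Setdb1, 0.73 between Cbx3 and Cbx5, and -0.67 between Cbx5 and Trim28. The plate format was not removed from any r. Between the formats, WT neurons differed by -1.77 for Cbx5, -0.96 for Cbx3 and 0.71 for Trim28. The part of the format in these r was not tested.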

How the data were processed

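Nuclei were sorted into 96-well or 384-well plates and measured by RamDA-seq. By the study's methods, reads were trimmed with Fastq-mcf by the authors, who mapped them to mm10 with HISAT2 (2.0.4 in the submitters' processing notes), counted them with featureCounts of Subread (1.5.0) on a Gencode annotation, removed poor nuclei and named cell types from clusters. The authors deposited RPKM for every nucleus, with a separate table for each format, and all values here start from them. RPKM is not a count, so no count test was run. Read totals were recovered from the RPKM steps with the exon lengths of the 49035 genes whose identifier matches GENCODE M21, and 31.4% (96-well) and 25.3% (384-well) of values above 0 were not whole reads.

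RPKM was averaged over the nuclei of each pool and cell type, and log2(mean RPKM + 0.1) was tested with limma 3.58.1 in R 4.3.3 across all genes, with Benjamini-Hochberg adjustment. Genes above 0 in at least 10% of nuclei (of 1 genotype in both formats, of 2 of 4 pools, or of 1 cell type or class in 4 of 6 pools) were tested. For detection, nuclei were thinned to 291080 (96-well) or 26381 (384-well) reads and shallower nuclei were left out. The code was tested on simulated data. The 8 genes, the lists and the rule for named genes (all members, the 4 largest called or else the 2 highest of a list, the 3 genes of likest pattern without predicted, ribosomal, small RNA genes and pseudogenes) were chosen with earlier results of these data known. Alternatives were other pseudocounts (0.01 and 1), no filter, depth-weighted means, limma trend, all 6 pools, 1 format, no pool term and leaving out each pool. Of the partner list, 2810474O19Rik is named Resf1 here. Some genes of the marker and chromobox lists are not reported here. Other steps used Python 3.11.15, pandas 2.3.3 and SciPy 1.17.1.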

Additional observations from a re-analysis of the deposited data

Results flagged for a closer look

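In Ehmt1Δ/+ minus WT, Setdb1 had a ratio above 0 in neurons and below 0 in microglia in both plate formats. The log2 ratios were 0.0761 (96-well) and 0.0149 (384-well) in neurons and -0.0883 (96-well) and -0.85 (384-well) in microglia. The difference between the cell types was not tested, and the microglial 384-well values rest on 16 (WT) and 19 (Ehmt1Δ/+) nuclei.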

How the results depend on the processing

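Of the 11 calls of a member between cell types or neuron classes, all 11 kept their direction under the 14 alternatives with a test (15 for Suv39h1), and 3 kept the call under all of them: Suv39h1 in oligodendrocytes against neurons and in microglia against oligodendrocytes, and Setdb1 in microglia against oligodendrocytes. The other 8 lost it under at least 1. Ratios without a call in the main fit also gained one under some alternatives. In microglia against neurons these were Setdb1 (4 of 14 alternatives), Cbx3 (4), Setdb2 (3) and Trim28 (3), among others. For counts of all genes, no filter on low values gave 19479 calls in oligodendrocytes against neurons (12820 with it). Between neuron classes the 96-well plates alone gave 1590 and the fit with no pool term 4919 (10262 with all pools and the term). limma trend called 2 genes in oligodendrocytes of Ehmt1Δ/+ against WT and 1 in oligodendrocytes with the induced transgene, against 0 without trend. The causes were not tested, beyond fewer pools in a single format. Median detection over members, types and pools was 54.8%, 46.6% with at least 2 reads and 37.6% after thinning. No paired analysis was possible because the labels give no replicate numbers that would pair pools of different genotypes, while cell types and neuron classes were compared within pools. Depth limits glia of the 384-well plates most, where a member's microglial value rests on as few as 1 read.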

Other observations

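Of the 8 genes a median of 7.0 were above 0 in neurons of both 96-well pools and of 6.0 in those of each 384-well pool. In oligodendrocytes the medians were 5.0 (WT) and 4.0 (Ehmt1Δ/+) in the 96-well pools and 3.0 in each of the 384-well pools. In microglia they were 5.0 (WT) and 4.5 (Ehmt1Δ/+) in the 96-well pools and 2.0 (WT, Ehmt1Δ/+ and iTg) and 3.0 (Ehmt1Δ/+; iTg) in the 384-well pools, where glia were sequenced to lower depth.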
